A study of Anas platyrhynchos with 18 samples.

Results

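The high-numbered miRNAs are the mature miRNAs whose number in the miRNA registry is 1000 or higher, with miR-2188 left out, and 100 of the 353 miRNAs detected in duck skin met that rule with at least 1 count over all libraries. Registry numbers follow the order of discovery, and many of these entries were first registered from sequencing of chicken small RNA, so that they are known mainly from birds. The rule uses the name only. The files give no species range, and some of the numbers, such as miR-1306, also name miRNAs of mammals. The other 253 miRNAs (lower numbers, the let-7 family and miR-2188) served as the comparison.

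Small RNA was sequenced from the skin of white Pekin ducks, taken above the thoracic vertebrae, at 6 stages of feather development. The stages before hatch were day 11, 15 and 20 of incubation (11EM, 15EM, 20EM), and those after hatch were 1 day (1DB), 4 weeks (4WK) and 10 weeks of age (10WK). No treatment or genotype separated the groups, and the labels give neither the sex of the ducks nor whether the libraries of a stage came from separate animals, so that p-values measure the spread between these libraries only. There were 17 libraries, 3 at each stage and 2 at 20EM, where replicate 2 was not analysed here.

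A miRNA is cut from a hairpin precursor whose 5p and 3p arms can each give a mature strand, and usually 1 arm is kept more than the other. The strand guides a silencing complex to messenger RNAs, chiefly through its seed, bases 2 to 8. miRNAs with the same seed form a family and share many targets. In skin, families with low numbers are the best known, such as miR-203 and the miR-200 family of the epithelium. For most high-numbered miRNAs no function is established. miR-2954 is an exception in part: its gene lies on the Z sex chromosome of birds, and in chicken and zebra finch it is more abundant in males.

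The sequences of the high-numbered miRNAs on which the results turn are given first. They are the chicken sequences to which the reads were matched, as listed in the supplementary expression table of the study, which holds one for 80 of the 100 and for all 34 that were abundant enough to be tested. The following 10 are those whose levels over the stages are described in most detail, apart from those shown further on for a motif, and capitals mark the seed.
miR-2954: cAUCCCCAuuccacuccuagca
miR-1559-5p: uUCGAUGCuuguaugcuacucc
miR-1559-3p: aGUUACAUguaugcaucgagca
miR-1662: uUGACAUCaucauacuugggau
miR-1552-5p: uUAGUGCGcgguaagcuagggug
miR-1416-5p: uCCUUAACucaugccgcugug
miR-2131-5p: aUGCAGAAgugcacggaaacagcu
miR-1677-3p: uGACUUCAguaggagcaggauu
miR-1805-3p: uGUAUUGGaacacuacagcuc
miR-6651-5p: aCCAGGUUgccuaaggagggg
None of these 10 shared its seed with another detected miRNA for which a sequence was listed.

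Fewer high-numbered miRNAs than others shared a seed, but the naming rule sets part of this contrast. Relatives under a common number, such as let-7a-5p and let-7b or miR-30a-5p and miR-30d, fall together among the others by that rule. The seed window is also fixed, so matches shifted along the sequence are missed. Except for its last bases, miR-1623 is contained in miR-214, and most of miR-1701 matches miR-456-3p with such a shift. Of the 80 high-numbered miRNAs with a sequence, 1 (1.25%) had the seed of another detected miRNA with a sequence, against 106 of 248 other miRNAs (42.7%). The exception was miR-1701, which has the seed of the 5p arms of both miR-29b hairpins but was present at a mean of 0.102 CPM only (CPM, the count scaled to 1000000 miRNA counts of a library).
miR-1701: gGCUGGUUaguugguuguuu
miR-29b-1-5p: aGCUGGUUucauauggugguuuaga
Beyond the seed these sequences diverge. The median length was 22 nt in both sets, but 58 of the 80 (72.5%) were 21 to 23 nt long against 213 of 248 (85.9%) of the others. The median content of G and C was 50% against 45%. It was 70% or more in 11 high-numbered miRNAs and in none of the other 248, and miR-1587 was the only one of these 11 that was abundant enough to be tested.
miR-1587: gGGCUGGGcugggcugggca
miR-7475-5p: cCGCCGCCgccgcgcccucc
In these examples, with the seed in capitals, G and C make up 80% of miR-1587 and 95% of miR-7475-5p. The means were 0.612 CPM for miR-1587 and 0.197 CPM for miR-7475-5p.

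A further letter pattern recurred. The motif UGAUGA, the core of the C box found near the 5′ end of C/D box small nucleolar RNAs, was searched for on the given strand and, as UCAUCA, on the opposite strand. UGAUGA stood in 6 of the 80 high-numbered sequences (7.5%) and in 2 of the 248 others (0.806%), miR-200b-3p and miR-23b-5p. In all 6 it began at base 6 or 7, whereas in miR-200b-3p it began at base 17 and in miR-23b-5p at base 13. Capitals mark the motif here, and miR-1662 is shown for UCAUCA, which it alone among the high-numbered miRNAs holds.
miR-1454: guacaaUGAUGAgacuuuggcucc
miR-3538: guucggUGAUGAaaccaugga
miR-1434: gugcgUGAUGAuggaaaauu
miR-3535: ggauaUGAUGAcugauuaucugaaa
miR-1563: gcacaUGAUGAggaagcacugaaa
miR-1554: gcaggUGAUGAggcuuugcug
miR-1662: uugacaUCAUCAuacuugggau
A match to these letters describes the sequence only, and the origin of these miRNAs was not tested. Before counting, the authors had removed reads matching databases of other noncoding RNA with up to 2 mismatches. That step covers only the RNAs those databases hold.

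Some entries were reverse complements of each other over a long stretch, which is shown in capitals for both pairs found at 12 bases or more.
miR-3524a: CAGAAUCGCAGAAUGGCUGagg
miR-3525: CAGCCAUUCUGCGAUUCUGuga
miR-1677-5p: uccugcaCCGCUGAAGUCAAU
miR-1803: AUUGACUUCAGCGGgguuugg
miR-3524a and miR-3525 match over 19 bases, and miR-1677-5p and miR-1803 over 14. Hardly any reads came from 3 of these 4: miR-3524a had 2 counts, miR-3525 had 8 and miR-1803 had 1, while miR-1677-5p had 413. The search was run for the high-numbered miRNAs only, so no share of the others is given. Such pairs occur among the others too, for instance miR-219a and miR-219b. No genome came with the files, so positions of the genes are not given.

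Most high-numbered entries were rare or absent in duck skin. The count tables list 532 high-numbered names, of which 100 (18.8%) had a count and 432 stood at 0 in every library that lists them. Of the other names, 253 of 269 (94.1%) had a count. Among the 100, 21 were present in all 17 libraries, 26 in a single library and 49 in at most 5 libraries. Among the other 253, 191 (75.5%) were present in all libraries and 2 in a single one. A total of 23 high-numbered miRNAs rested on 1 count and 47 on 10 counts or fewer. Their median total was 16 counts over the series, against 6465 counts for the others.

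The libraries held between 3072942 and 15839714 miRNA counts, and 3 counts, taken as the limit that a count of 0 allows, correspond to between 0.189 and 0.976 CPM. This limit covers counting error only. The totals were 4003331 to 15839714 in the 8 libraries before hatch and 3072942 to 8568906 in the 9 after hatch. Between 37 and 56 high-numbered miRNAs were detected per library, with a mean of 51.1 ± 4.58 in the 8 libraries before hatch and of 42.4 ± 3.91 in the 9 after hatch (SD). When each library was reduced by calculation to the smallest total, the expected numbers were 40.3 ± 2.26 before hatch and 38.2 ± 1.93 after hatch (SD), with ranges of 38.2 to 45.2 and 35.5 to 40.4 that overlapped. No test was made of this difference. At that depth the stage means ran from 36.8 at 10WK to 42.1 at 11EM. For the other miRNAs the mean per library was 232 ± 6.63 before hatch and 218 ± 5.78 after hatch (SD). At the smallest total these were 220 ± 4.85 and 213 ± 3.63 (SD), with stage means from 212 at 10WK to 226 at 11EM. The decline was thus not particular to the high-numbered miRNAs. Of the 100, 28 were seen only before hatch, 14 only after hatch and 58 in both periods. Of the other 253, 10 were seen only before hatch, 0 only after hatch and 243 in both. The 28 and the 14 are affected by the same gap in depth.

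The best supported of the miRNAs seen in 1 period was miR-1788-3p, with 72 counts in 4 libraries before hatch and 0 in the 9 after hatch. Its 5p arm had 29 counts in 3 libraries before hatch and 2 counts in 2 libraries after hatch. A single library gave 60 of the 72 counts. Both arms were named after their values had been seen.

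Together the high-numbered miRNAs made up 708966 of 144194052 miRNA counts, or 0.492%. Their mean levels lay mostly below 1 CPM, which was the case for 71 of the 100, against 49 of the other 253 (19.4%). There were 14 at 1 to 10 CPM, 8 at 10 to 100 CPM, 5 at 100 to 1000 CPM and 2 above 1000 CPM. Of the others, 62 were above 1000 CPM. The numbers 1306 to 1814 held 59 of the high-numbered miRNAs, of which 25 were abundant enough to be tested, and summed to 2329 CPM on average. The numbers 2127 to 3607 held 16, of which 6 were tested, with 2203 CPM. The numbers 6516 to 6701 held 16 with 7.78 CPM, and 7439 to 7478 held 9 with 0.884 CPM. The highest numbers thus contributed least, with 2 and 1 tested in the last groups.

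**Figure D1:**
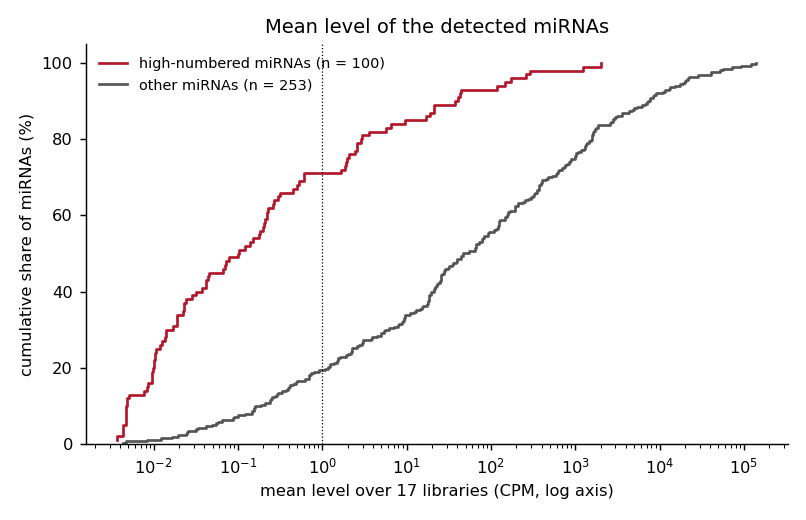
Cumulative share (percent) of the 100 high-numbered miRNAs and of the 253 other miRNAs against their mean level over 17 libraries (CPM, log axis); the dotted line marks 1 CPM. At that line the curve of the high-numbered miRNAs stands at 71% and that of the others at 19.4%.

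Most of the counts came from a pair of miRNAs. miR-2954 and miR-1559-5p made up 69.3% ± 10.4 (SD, n = 17) of the high-numbered counts of a library, between 39.7% and 83.4%. The summed level of all 100 ran from 2204 CPM in replicate 2 of 1DB to 7414 CPM in replicate 1 of 15EM. It averaged 5089 ± 1908 CPM in the libraries before hatch (n = 8) and 4054 ± 1799 CPM in those after hatch (n = 9, both SD), and the ranges overlapped. Without miR-2954 the sum was far steadier within stages, at 2791 ± 196 CPM at 11EM, 3127 ± 259.8 CPM at 15EM, 2647 ± 114 CPM at 20EM (n = 2), 1588 ± 229 CPM at 1DB, 2982 ± 235 CPM at 4WK and 2016 ± 64.7 CPM at 10WK (SD, n = 3 unless given). The lowest sum without miR-2954 was thus that of the newly hatched ducks.

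**Figure D2:**
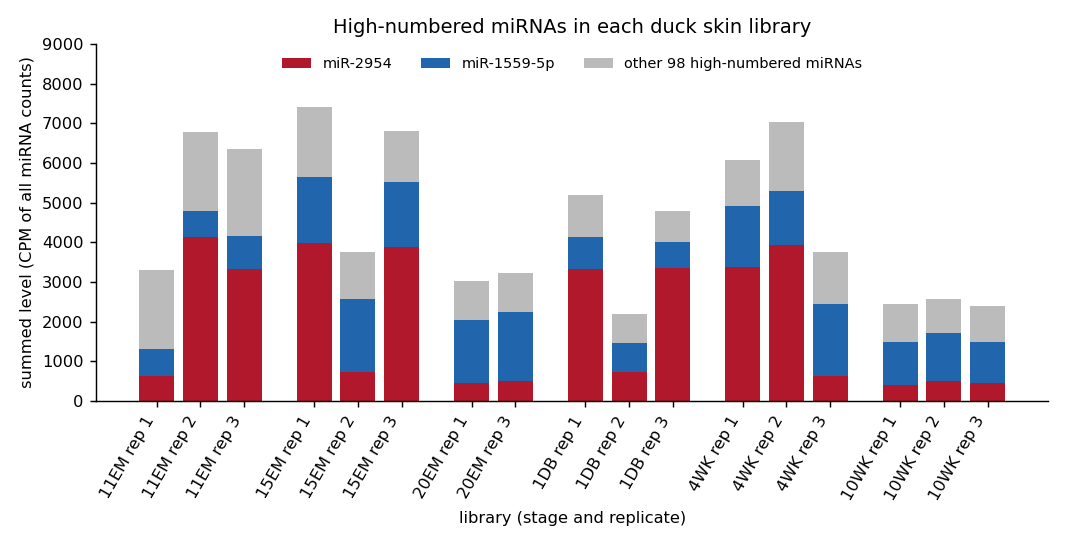
Summed level of the high-numbered miRNAs in each library (CPM of all miRNA counts), stacked as miR-2954, miR-1559-5p and the other 98; bars are single libraries ordered by stage and replicate. The bars differ within a stage chiefly by miR-2954, which lies at 738 CPM or below in 9 libraries and at 3334 CPM or above in 8.

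miR-2954 was the most abundant high-numbered miRNA, with a mean of 2023 CPM. Before hatch it measured 621, 4124 and 3338 CPM at 11EM, 3992, 738 and 3881 CPM at 15EM, and 466 and 501 CPM at 20EM. After hatch it measured 3334, 737 and 3356 CPM at 1DB, 3369, 3934 and 623 CPM at 4WK, and 413, 504 and 458 CPM at 10WK. The levels fell into a low range from 413 to 738 CPM (9 libraries) and a high range from 3334 to 4124 CPM (8 libraries), with no library between them. Libraries of both ranges occurred at 11EM, 15EM, 1DB and 4WK, and both libraries of 20EM and all 3 of 10WK were in the low range.

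The gap between the ranges was 4.52-fold, and the next largest step between neighbouring libraries was 1.23-fold. Of 134 miRNAs with at least 10 CPM in every library, miR-2954 had the fifth largest step between neighbours, and the median of their largest steps was 1.44-fold. Within a stage, the highest library exceeded the lowest 6.64-fold at 11EM, 5.41-fold at 15EM, 4.55-fold at 1DB and 6.31-fold at 4WK, but 1.08-fold at 20EM and 1.22-fold at 10WK. The median of these folds, 4.98, was second among 119 miRNAs with a mean of at least 100 CPM, behind the muscle miRNA miR-206, and the median over the 119 was 1.27. These ranks were computed after the values had been seen.

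The stage tests of miR-2954 read this spread within stages. Its stage test (edgeR quasi-likelihood F test over 6 stages, Benjamini-Hochberg adjustment) gave an adjusted p of 0.0307, which missed the threshold with limma (0.0954) and with a replicate block (0.0541), and over all alternatives it lay between 8.9e-05 and 0.0954. It missed the threshold without either library of 20EM, replicate 3 of 1DB or any 1 of the 3 libraries of 10WK, with adjusted p between 0.0538 and 0.0810. The rise from 20EM to 1DB was 2.63 on the log2 scale (SE 0.96, adjusted p = 0.0379) but missed the threshold under 6 of the 8 alternatives that kept all libraries, namely library totals, limma, clean reads, no filter, a replicate block and the clean-read class, with adjusted p between 0.0557 and 0.139. With DESeq2 the adjusted p was 0.0039. Leaving out replicate 1 or 3 of 20EM, or replicate 1 or 3 of 1DB, ended the call as well, with adjusted p between 0.0788 and 0.187. Levels after hatch did not differ from those before hatch beyond this spread (log2 fold change 0.10, SE 0.46, adjusted p = 0.859).

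Stage courses were tested for the 34 high-numbered miRNAs that reached 1 CPM in 2 or more libraries, among 252 miRNAs tested in all. The other 218 were 86.2% of their set. Abundance differed over the 6 stages for 27 of the 34 (79.4%), against 84.9% of all miRNAs tested. Below a mean of 10 CPM the stage test called 14 of 19 high-numbered miRNAs (73.7%) and 36 of 51 others (70.6%). From 10 to 100 CPM it called 6 of 8 and 50 of 55, and from 100 CPM upwards 7 of 7 and 101 of 112. The mean level was highest at 11EM for 17 of the 34 (50%), against 68 of the 218 others (31.2%). It was highest at 15EM for 9 (26.5%, others 26.6%), at 20EM for 1 (2.94%, others 5.96%) and at 1DB for none of the 34 (others 5.96%). It was highest at 4WK for 5 (14.7%, others 14.7%) and at 10WK for 2 (5.88%, others 15.6%). The 34 include miRNAs that the stage test did not call, whose highest stage is not established.

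Between the periods before and after hatch, 18 of the 34 differed at least 2-fold with an adjusted p under 0.05, against 50.4% of all miRNAs tested. There were 7 higher after hatch (21% of all tested) and 11 lower (29.4%). Of the higher ones, miR-6651-5p, miR-1434, miR-3528 and miR-1711 reached the filter of 1 CPM only in libraries after hatch. Of the lower ones, miR-7452-5p and miR-1805-5p reached it only before hatch. For these the filter itself favoured the direction called, so their calls add little to the counts. The median log2 fold change was -0.61 for the 34 and -0.16 over all 252. In 7 of the 34 every library after hatch was below every library before hatch (21% of all tested), and in 1 every library after hatch was above (9.52%). These counts rest on a scale set by the miRNA counts themselves. When the library size was the number of clean reads instead, the median over all miRNAs was -1.78, and the 7 higher and 11 lower became 4 higher and 27 lower. Over all 252 miRNAs, 53 higher and 74 lower became 18 higher and 180 lower.

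**Figure D3:**
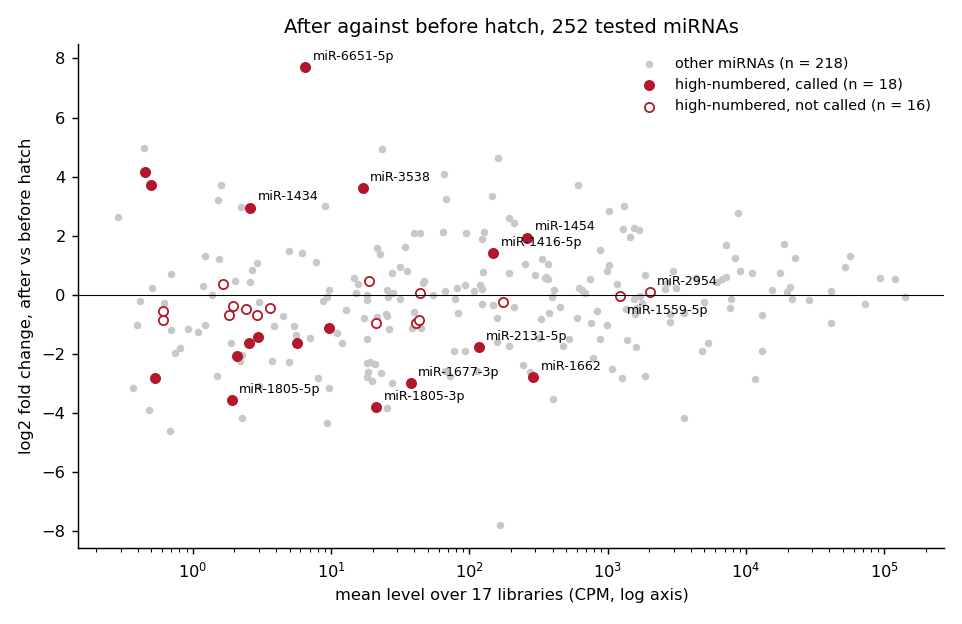
Log2 fold change after against before hatch (edgeR) plotted against the mean level over 17 libraries (CPM, log axis) for 252 tested miRNAs; grey points are the 218 others, filled red points the 18 high-numbered miRNAs called and open red points the 16 not called. miR-1805-3p at -3.80 and miR-6651-5p at 7.71 mark the ends among the high-numbered miRNAs, and the abundant miR-2954 and miR-1559-5p lie close to 0.

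The clearest decline was that of miR-1662, the third most abundant high-numbered miRNA. It measured 1168, 793 and 923 CPM at 11EM, 525, 262 and 271 CPM at 15EM, and 256 and 211 CPM at 20EM. After hatch it measured 73.7, 60.9 and 75.3 CPM at 1DB, 75, 71.1 and 53.5 CPM at 4WK, and 30.9, 40.0 and 32.2 CPM at 10WK. The level declined with age and did not overlap between the periods, and the stage means of 11EM and 10WK differed 28.0-fold. The fall across hatch was -2.77 on the log2 scale (SE 0.14, adjusted p = 2.0e-10), and the steps from 11EM to 15EM (-1.56, SE 0.23, adjusted p = 9.0e-05) and from 20EM to 1DB (-1.49, SE 0.25, adjusted p = 0.00033) passed the test.

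miR-1805-3p and miR-1677-3p fell further from lower levels. Before hatch miR-1805-3p lay between 12.7 and 71.8 CPM with a median of 42.5, and after hatch between 0.808 and 5.17 CPM with a median of 1.63. Its stage means differed 51.1-fold between 11EM and 4WK, and the change across hatch was -3.80 (log2, SE 0.19, adjusted p = 1.9e-10). With miR-1559-3p, it was called in the most steps, from 15EM to 20EM (-1.04, SE 0.32, adjusted p = 0.0288), from 20EM to 1DB (-1.66, SE 0.31, adjusted p = 0.00090) and from 1DB to 4WK (-2.07, SE 0.35, adjusted p = 0.00042). The step from 15EM to 20EM lost its call under 6 of the 8 alternatives that kept all libraries. It also lost it without any 1 of the 3 libraries of 11EM, replicate 1 of 15EM, replicate 3 of 20EM, replicate 3 of 1DB, or replicates 2 or 3 of 4WK, with adjusted p between 0.0505 and 0.240.

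miR-1677-3p lay between 40.2 and 118 CPM before hatch with a median of 68.1, and between 1.30 and 20.5 CPM after hatch with a median of 5.05. The groups did not overlap, and the change was -2.99 (log2, SE 0.26, adjusted p = 7.4e-08). The step from 20EM to 1DB was not called (-0.95, SE 0.45, adjusted p = 0.0997). The step from 1DB, with a mean of 18.2 ± 3.80 CPM, to 4WK, with 3.48 ± 1.37 CPM (SD, n = 3), was -2.48 (SE 0.46, adjusted p = 0.00077). The libraries of 4WK and 10WK held only 4 to 39 counts of it. Its 5p arm fell with it (-2.07, SE 0.44, adjusted p = 0.00063), and so did the 5p arm of miR-1805 (-3.56, SE 0.41, adjusted p = 1.4e-06), from means before hatch of 3.66 and 3.75 CPM. The 5p arm of miR-1805 reached the filter of 1 CPM only before hatch, so its p-value adds little to its levels.

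Both arms of miR-2131 and of miR-1467 were lower after hatch. miR-2131-5p lay between 89.7 and 322 CPM before hatch (median 179.5) and between 21.2 and 90.7 CPM after hatch (median 49.5), so that the groups overlapped by 1 library, replicate 2 of 4WK at 90.7 CPM. The change was -1.76 (log2, SE 0.22, adjusted p = 3.0e-06), while the step from 20EM to 1DB was not called (-0.78, SE 0.39, adjusted p = 0.122). miR-2131-3p went from a median of 58.7 to 29.9 CPM and was short of 2-fold (-0.85, SE 0.18, adjusted p = 0.00065), which it passed with library totals, limma or clean reads. The paper names it among the 2 miRNAs that differed from 4WK to 10WK at p under 0.05. Here that step was -1.01 (log2, SE 0.31, adjusted p = 0.0897) and was not called. Its means were 34.5 ± 4.88 CPM at 4WK and 15.7 ± 0.30 CPM at 10WK (SD, n = 3). miR-1467-5p went from a median of 9.24 to 2.61 CPM (-1.63, SE 0.20, adjusted p = 2.4e-06) and miR-1467-3p from 29.1 to 12.8 CPM (-0.96, SE 0.13, adjusted p = 5.5e-06), just short of 2-fold. The latter passed 2-fold under the same alternatives and without replicate 2 of 1DB or replicate 2 of 10WK. Neither arm of miR-1467 overlapped between the periods.

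Lower after hatch by the same threshold, each at a mean below 5 CPM, were also miR-1756a, miR-1397-5p and miR-7452-5p. Markers of the same cell type moved in both directions across hatch. The epithelial miR-205b went from 3496 to 11530 CPM before hatch to 8.08 to 734 CPM after hatch (log2 fold change -4.16). The epithelial miR-203a changed by 1.71. Of the muscle list, miR-206 changed by -7.79 and miR-133a-3p by 1.70. Of the red blood cell list, miR-144-3p changed by -0.41, short of 2-fold, and miR-451 by 2.77. Such single members do not stand for their lists. The summed level of the epithelium list (6 of 7 markers found, miR-141-3p not) was 21955 to 44825 CPM at 11EM and 77286 to 86077 CPM at 20EM. It was 36358 to 47689 CPM at 1DB and 61041 to 70537 CPM at 10WK. That of the red blood cell list (5 of 5 found, miR-144-5p at 1.13 CPM or below) rose from 2188 to 5032 CPM before hatch to 11625 to 25586 CPM after hatch. The sums of the muscle list are given by stage further on. The part of other cells in the falls was not tested, and in whole skin fewer cells of a type and less RNA per cell cannot be told apart.

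**Figure D4:**
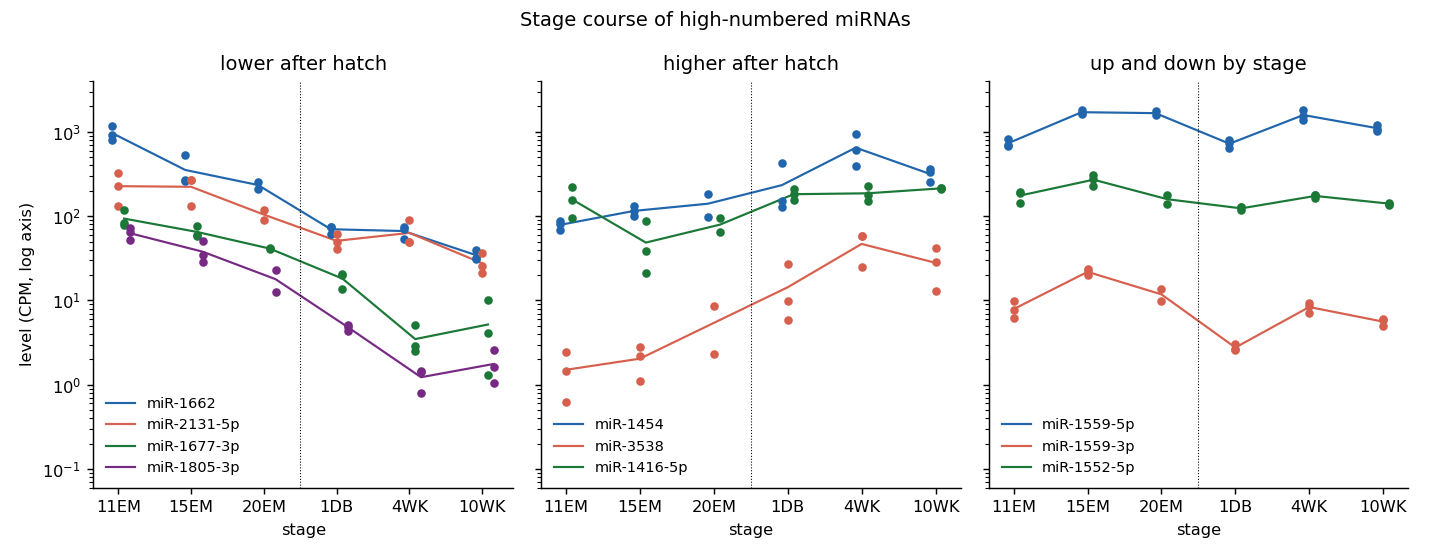
Level of 10 high-numbered miRNAs (CPM, log axis) by stage in 3 panels: lower after hatch, higher after hatch, and up and down by stage; points are libraries, lines join stage means and the dotted line marks hatch. miR-1662 drops from about the level of miR-1559-5p at 11EM to a mean of 34.4 CPM at 10WK, and both arms of miR-1559 dip at 1DB.

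The 7 higher after hatch were miR-1454, miR-3538, miR-1434, miR-6651-5p, miR-1416-5p, miR-3528 and miR-1711. The first 3 hold the motif UGAUGA, which 4 of the 34 tested have. The fourth, miR-3535, was not called, and neither were miR-200b-3p (log2 fold change 0.07) and miR-23b-5p (0.30), which also hold it. Of the 3 that rose, miR-1434 reached the filter of 1 CPM only after hatch, and all were highest in replicate 2 of 4WK. A link between the motif and the rise was not tested. miR-1454 measured 69.1, 87.1 and 80.3 CPM at 11EM, 132, 114 and 99.7 CPM at 15EM, and 98.8 and 182 CPM at 20EM. After hatch it measured 422, 127 and 150 CPM at 1DB, 393, 940 and 612 CPM at 4WK, and 364, 257 and 332 CPM at 10WK. The highest level was that of replicate 2 of 4WK, and the ranges before and after hatch overlapped, since replicates 2 and 3 of 1DB lay below replicate 3 of 20EM. The rise across hatch was 1.94 (log2, SE 0.26, adjusted p = 6.6e-06). With clean reads as library size it was 0.33 (adjusted p = 0.178), against a median of -1.78 over all miRNAs on that scale. The step from 20EM to 1DB was not called (0.95, SE 0.47, adjusted p = 0.112). The step from 1DB to 4WK was 1.36 (SE 0.41, adjusted p = 0.0190), and it missed the threshold without replicate 2 of 1DB (adjusted p = 0.0763), without replicate 3 of 1DB (0.0736) or without replicate 2 of 4WK (0.0887), and with clean reads as library size (0.64, adjusted p = 0.190).

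miR-3538 lay between 0.631 and 8.49 CPM before hatch with a median of 2.27, and between 5.92 and 58.0 CPM after hatch with a median of 27.3. The stage means ran from 1.5 CPM at 11EM to 46.8 CPM at 4WK, and the ranges overlapped. The rise across hatch was 3.61 (log2, SE 0.45, adjusted p = 3.2e-06), while the step from 20EM to 1DB was not called (1.69, SE 0.79, adjusted p = 0.0962). miR-1434 went from between 0 and 0.857 CPM before hatch to between 0 and 24.0 CPM after hatch (2.96, SE 0.77, adjusted p = 0.0029), with the 24.0 CPM again in replicate 2 of 4WK. Its step from 1DB to 4WK was 3.30 (SE 1.12, adjusted p = 0.0323). This step missed the threshold without that library or without any 1 of the 3 libraries of 1DB, with adjusted p between 0.0638 and 0.295. miR-1434 reached the filter of 1 CPM only after hatch, so its p-value across hatch adds little to its levels. miR-3535 has the motif but did not pass the stage test (adjusted p = 0.866), with a mean of 2.43 CPM. The remaining pair could not be tested, miR-1563 with 15 counts and miR-1554 with 1.

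miR-6651-5p was the high-numbered miRNA with the sharpest contrast across hatch. It was at 0 in 5 of the 8 libraries before hatch, including all 3 of 15EM, and reached 0.433 CPM at most. After hatch it measured 15.0, 12.2 and 3.15 CPM at 1DB, 7.68, 41.3 and 7.69 CPM at 4WK, and 6.70, 6.01 and 10.4 CPM at 10WK. It had 7 counts before hatch and 598 after hatch, though the libraries after hatch were shallower, and it was the one whose libraries after hatch were all above those before. The fitted change was 7.71 on the log2 scale (SE 0.70, adjusted p = 3.5e-07), a size that depends on how the zeros are treated. The step from 20EM to 1DB passed the test as well (4.93, SE 1.07, adjusted p = 0.0026). miR-6651-5p reached the filter of 1 CPM only after hatch, which favoured this direction, so both p-values add little to the counts.

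Also higher after hatch by the threshold were the rare miR-3528, with 5 counts before and 40 after hatch, and miR-1711, with 5 before and 34 after. Both entered the test only through libraries after hatch. For miR-1454, miR-3538, miR-1434, miR-6651-5p and miR-3528 the highest library was replicate 2 of 4WK. It had the most clean reads of all libraries, 47825665, and 5500608 miRNA counts, the lowest share of miRNA counts in clean reads. The part of this low share in these peaks was not tested. For miR-3538 replicate 3 of 4WK was close to it (58.0 and 57.8 CPM). Replicate 2 of 4WK also held the highest summed level of the leukocyte list (4 of 4 markers found, miR-155 at or near 0 in every library), 9308 CPM. The list summed to 448 to 742 CPM before hatch, 1014 to 1104 CPM at 1DB, 3286 to 9308 CPM at 4WK and 1885 to 3104 CPM at 10WK, and its part in these rises was not tested.

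miR-1416-5p followed another course, lowest at 15EM. It measured 95.6, 223 and 156 CPM at 11EM, 86.6, 20.9 and 38.1 CPM at 15EM, and 94.3 and 63.9 CPM at 20EM. After hatch it measured 156, 182 and 208 CPM at 1DB, 230, 151 and 179 CPM at 4WK, and 216, 208 and 216 CPM at 10WK. The fall from 11EM to 15EM was -1.85 (log2, SE 0.40, adjusted p = 0.0021), and the rise from 20EM to 1DB was 1.46 (SE 0.46, adjusted p = 0.0199). Without replicate 1 of 20EM, replicate 3 of 20EM or replicate 3 of 1DB this rise missed the threshold, with adjusted p of 0.0606, 0.125 and 0.0646. So it did with library totals (adjusted p = 0.0545), limma (0.0627) and clean reads (0.47 on the log2 scale, adjusted p = 0.518). Across hatch the change was 1.41 (SE 0.24, adjusted p = 8.9e-05), which turned to -0.22 (adjusted p = 0.501) with clean reads as library size.

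The 3p arm of miR-1416 had the same low at 15EM, at 23, 3.38 and 3.64 CPM, against 16, 43.1 and 30.8 CPM at 11EM (-1.76, SE 0.60, adjusted p = 0.0283), although its stage test did not pass (adjusted p = 0.118). That step missed the threshold without replicates 2 or 3 of 11EM, 2 or 3 of 15EM, 3 of 1DB, or 2 or 3 of 4WK, with adjusted p between 0.0540 and 0.170. It also missed it with library totals (adjusted p = 0.0535), clean reads (0.109), no filter (0.0727) and the filter of 10 CPM (0.0554). The muscle list (7 of 7 markers found, miR-206 at 0 in 2 libraries) had its lowest sums at 15EM too, mostly from miR-133a-3p. It summed to 7358 to 14085 CPM at 11EM, 459 to 3891 CPM at 15EM, 2420 to 6054 CPM at 20EM, 9114 to 10507 CPM at 1DB, 5233 to 11216 CPM at 4WK and 12205 to 15076 CPM at 10WK. Replicate 1 of 15EM was the highest of its stage for both arms of miR-1416 and for miR-133a-3p, at 3170 CPM against 506 and 410 CPM. Other muscle markers went another way after hatch: miR-206 was at 476 to 1052 CPM at 11EM and at 1.62 CPM or below in every library after hatch, and miR-133b, miR-499-5p and miR-1a-3p lay below their lowest level at 11EM in every library after hatch. The part of muscle in the course of miR-1416 was not tested.

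miR-1559-5p rose and fell in turn, and it varied little within stages. It measured 692, 677 and 817 CPM at 11EM, 1658, 1830 and 1639 CPM at 15EM, and 1581 and 1746 CPM at 20EM. After hatch it measured 792, 729 and 647 CPM at 1DB, 1556, 1367 and 1821 CPM at 4WK, and 1079, 1212 and 1019 CPM at 10WK. The libraries of 11EM and 1DB lay below those of the other 4 stages without overlap. The rise from 11EM to 15EM was 1.15 (log2, SE 0.14, adjusted p = 2.0e-05) and that from 1DB to 4WK 1.02 (SE 0.14, adjusted p = 8.8e-05). The latter was just over 2-fold and went below it with DESeq2, with clean reads as library size or with the class of the clean-read share as a covariate, and without replicate 1 of 11EM, replicate 2 of 1DB or replicate 3 of 4WK. Across hatch the levels differed by -0.04 (SE 0.08, adjusted p = 0.649).

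Its 3p arm, at about 10 CPM, took the same turns more steeply. The stage means were 7.89 ± 1.76 CPM at 11EM, 21.8 ± 1.74 CPM at 15EM, 11.8 ± 2.91 CPM at 20EM (n = 2), 2.76 ± 0.23 CPM at 1DB, 8.36 ± 1.11 CPM at 4WK and 5.60 ± 0.58 CPM at 10WK (SD, n = 3 unless given). The step from 11EM to 15EM was 1.38 (SE 0.22, adjusted p = 0.00016), that from 20EM to 1DB -1.84 (SE 0.25, adjusted p = 7.2e-05) and that from 1DB to 4WK 1.48 (SE 0.24, adjusted p = 0.00031). With clean reads as library size the last of these was 0.71 (adjusted p = 0.227). Across hatch it was lower (-1.12, SE 0.14, adjusted p = 2.7e-06), short of 2-fold without replicate 3 of 11EM or replicate 3 of 4WK. The epithelium list, to which neither arm belongs, also had its lowest sums at 11EM and 1DB, mostly from miR-205a and miR-203a, while its member miR-205b was highest at 11EM. It summed to 21955 to 44825 CPM at 11EM, 87970 to 118963 CPM at 15EM, 77286 to 86077 CPM at 20EM, 36358 to 47689 CPM at 1DB, 77320 to 87433 CPM at 4WK and 61041 to 70537 CPM at 10WK. Its part in the course of miR-1559 was not tested.

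miR-1552-5p and miR-1451-5p changed least among the abundant high-numbered miRNAs. miR-1552-5p had stage means between 124 CPM at 1DB and 271 CPM at 15EM, 2.19-fold apart (stage test adjusted p = 0.0050), and none of its steps passed the threshold. Its 3p arm went from a median of 50.3 CPM before hatch to 24.0 CPM after hatch without overlap, short of 2-fold (-0.93, SE 0.14, adjusted p = 2.0e-05), which it passed with library totals, limma or clean reads and without replicate 1 of 20EM. miR-1451-5p lay between 32.4 and 61.7 CPM in all 17 libraries. Its stage test fell just short (adjusted p = 0.0503), with values between 2.7e-05 and 0.218 over the 8 alternatives that kept all libraries. It passed under 5 of these, namely library totals, DESeq2, limma, clean reads and the filter of 10 CPM. Without replicate 2 of 11EM, replicate 3 of 15EM or replicate 1 of 4WK it passed, with an adjusted p of 0.0425 at the lowest.

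By step, at most 7 of the 34 (20.6%) were called, and the share over all tested is given beside each count. From 11EM to 15EM 7 were called (28.6% of all tested), with miR-1559-5p and miR-1559-3p higher and miR-1662, both arms of miR-1416, miR-1329-5p and miR-1597-5p lower. From 15EM to 20EM only miR-1805-3p was called (13.9% of all tested). This count was 0 without replicates 2 or 3 of 11EM, replicate 3 of 1DB or replicate 3 of 4WK, 2 without replicate 1 of 15EM or replicate 3 of 20EM, and 3 without replicate 2 of 15EM. From 20EM to 1DB 7 were called (28.6%), with miR-2954, miR-1416-5p and miR-6651-5p higher and miR-1662, miR-1805-3p, miR-1805-5p and miR-1559-3p lower. That of miR-1805-5p (-1.72, SE 0.61, adjusted p = 0.0359) was lost without replicate 1 of 20EM or any 1 of the 3 libraries of 1DB, with adjusted p between 0.0514 and 0.533. From 1DB to 4WK 7 were called (22.2%), with miR-1559-5p, miR-1559-3p, miR-1454, miR-1329-5p and miR-1434 higher and miR-1677-3p and miR-1805-3p lower. The last count was 12 without replicate 1 of 4WK and 4 without replicate 2 of 1DB. From 4WK to 10WK edgeR called 0 (1.19% of all tested). An unadjusted p under 0.05 was reached by 8 of the 34 and by 52 of all 252. DESeq2 called 3 (11 of all) and limma 2 (8 of all). edgeR called 4 without replicate 3 of 4WK and 1 without replicate 2 of 11EM or replicate 3 of 1DB. Counts over all miRNAs are not set beside these left-out fits, so their counts are not read as high or low. In all, 14 of the 34 were called in some step, with 22 calls. The matching share over all tested miRNAs was not computed, so this count is not read as high or low.

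For 17 hairpins both arms were detected, and in 8 both arms averaged at least 1 CPM. This limit left out miR-1451, with 6650 counts of its 5p arm and 1 count of its 3p arm. Of the 8 kept, miR-1559 was the most lopsided. Its 5p arm exceeded the 3p arm by 7.20 ± 0.69 on the log2 scale (mean and SD over 17 libraries). The 5p arm also led for miR-1416 (3.00 ± 0.57), miR-1552 (2.20 ± 0.46) and miR-2131 (1.15 ± 0.60), and it did so in each of the 17 libraries. The 3p arm led for miR-1677 (-3.94 ± 0.76), miR-1805 (-3.05 ± 0.83) and miR-1467 (-2.13 ± 0.52) in every library with counts of both arms, which were 14 for miR-1677 and miR-1805. In miR-1306 the 3p arm was higher in 13 libraries and the 5p arm higher in 3 of 17 (-0.76 ± 0.92). Those 3 held 10 against 7, 17 against 9 and 14 against 12 counts, so a change of lead is not established.

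The size of the lead shifted with stage for several hairpins while its direction stayed. The 5p lead of miR-2131 was 1.86 ± 0.41 at 11EM and 0.49 ± 0.17 at 1DB (log2, SD, n = 3), and that of miR-1559 was 6.29 ± 0.12 at 15EM and 8.03 ± 0.20 at 1DB. The lead of miR-1552-5p was 1.80 ± 0.24 at 11EM and 2.72 ± 0.51 at 1DB, and that of miR-1416-5p was 2.43 ± 0.13 at 11EM and 3.71 ± 0.42 at 1DB. The 3p lead of miR-1467 went from -1.58 ± 0.28 at 11EM to -2.87 ± 0.56 at 10WK, where its 5p arm had 3 to 10 counts per library. These stages were picked as the lowest and highest of each hairpin, and the shifts are given as a description without a test.

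**Figure D5:**
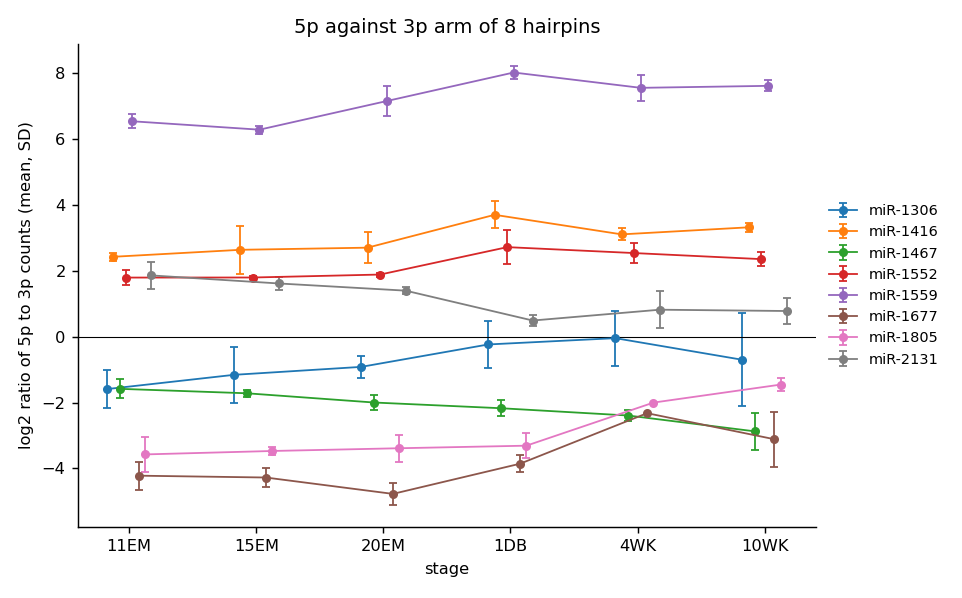
Log2 ratio of 5p to 3p counts for 8 high-numbered hairpins by stage (points are means over the libraries with counts of both arms, bars are SD). miR-1559 stays highest, between 6.29 and 8.03, and miR-1467, miR-1677 and miR-1805 stay below 0 at every stage. The points of miR-1677 and miR-1805 rest on 1 library each at 4WK and on 2 each at 10WK, since libraries without 5p counts drop out. With 0.5 count added to each arm in all libraries, they would be -3.82 and -3.04 at 4WK and -3.02 and -2.30 at 10WK. miR-1306 runs from -1.59 at 11EM to -0.04 at 4WK, where its arms held 2 to 17 counts per library.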

How the data were processed

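Small RNA from duck skin had been sequenced on an Illumina HiSeq after TruSeq Small RNA preparation. The authors trimmed the reads and dropped those under 18 nt. They also dropped reads that fitted another noncoding RNA (2 mismatches allowed) and assigned the remainder to chicken entries of miRBase 21 with CLC Genomic Workbench. The deposited values are raw counts, 1 line for each mature arm of a hairpin, so that duck miRNAs that differ from chicken may be undercounted. The members and lists were chosen with earlier results of these data known.

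Counts were summed over the hairpins of a name, an unlisted name was set to 0, and CPM are relative to the total of miRNA counts (3072942 to 15839714 per library). Libraries were grouped by the stage in their labels. All 6 stages entered a single edgeR 4.0.16 quasi-likelihood fit (R 4.3.3, TMM scaling, miRNAs reaching 1 CPM in 2 or more libraries, Benjamini-Hochberg adjustment over 252 miRNAs), called at an adjusted p under 0.05 and, for contrasts, a fold change of at least 2. SEs were derived from the fold change and its F value. The procedure was tested on simulated data. Detection was also computed for the smallest library total by hypergeometric expectation. Replicates of a stage differed by far more than sampling noise (chi-square per degree of freedom 219 or more), so none was treated as a repeat. Alternatives were library totals alone, DESeq2 1.42.0, limma 3.58.1 (0 set to 0.01 CPM), clean reads as library size, no filter, a filter of 10 CPM reached in 3 or more libraries, a replicate block, the class of the clean-read share (under 96% or over 98%) as a covariate, the adjusted p alone, and each library left out. Clean-read totals came from a supplementary table of the study. The sums without miR-2954 and its ranks were added after seeing the data.

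The miRNAs named were the 10 with the highest mean CPM, those averaging 5 CPM or more and called in the stage test with at least 2-fold between stage means, all called in a contrast, both arms of the compared hairpins, and those with the motif or a reverse complement. Tables were made with python 3.11.15, pandas 2.3.3, numpy 2.4.6 and scipy 1.17.1, and figures with matplotlib 3.10.9. Targets, candidate miRNAs outside miRBase and genome positions were not analysed here.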

Additional observations from a re-analysis of the deposited data

How the results depend on the processing

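Clean reads as library size moved the values most, since they shift the median change across hatch to -1.78 (main -0.16; library totals -0.37, limma -0.40). On that scale the hatch contrast called 31 high-numbered miRNAs and 198 of all. The step from 20EM to 1DB called 12 (107 of all), from 15EM to 20EM 3 (39 of all), and from 4WK to 10WK 0 of all. The changes across hatch that turned were those of miR-1416-3p (-1.21), miR-1416-5p (-0.22), miR-1451-5p (-1.55) and miR-2954 (-1.52), and the summed level per 1000000 clean reads was 2841 before and 797 after hatch. The cause was not tested. Without miR-2954 the sums were 2881 and 2195 CPM.

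With a filter of 10 CPM reached in 3 or more libraries, fewer miRNAs were tested. The stage test then called 17 high-numbered miRNAs and the hatch contrast 10 (94 of all). For this stage test neither the count of all nor the number tested is given, so the 17 is not read as a loss or a gain. The 15EM vs 11EM step called 4 (57 of all), 20EM vs 15EM 0 (29 of all) and 10WK vs 4WK 1 (5 of all). From 15EM to 20EM, DESeq2 called 2 high-numbered miRNAs (42 of all), the fit without a filter 0 (29 of all) and the adjusted p alone 4. From 4WK to 10WK, library totals called 1 (5 of all), DESeq2 3 (11 of all), limma 2 (8 of all), and the adjusted p alone 6 of all. By adjusted p alone, all calls numbered 109 at 15EM vs 11EM, 63 at 20EM vs 15EM, 111 at 1DB vs 20EM, 87 at 4WK vs 1DB and 194 across hatch. With each library left out in turn, calls of high-numbered miRNAs ranged from 0 to 3 from 15EM to 20EM (all 17 to 42). They ranged from 0 to 4 from 4WK to 10WK (all 1 to 16). From 1DB to 4WK they ranged from 4 to 12, with the count of all not given, so this range is not read as high or low. Detection per library was 38.1 before and 30.0 after hatch at 3 counts or more, 28.4 and 21.6 at 10 or more, and 40.3 and 38.2 at the smallest total.

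Same replicate numbers did not pair the libraries (mean correlation of deviations -0.03 over 40 pairs, against 0.01 over 80 pairs of different numbers). With the number as a replicate block, the stage test called 26 of the 34 high-numbered miRNAs tested and the hatch contrast 18 (122 of all). The count of all for this stage test is not given, so the 26 is not read as high or low. The steps called 7, 0, 5, 7 and 0 (70, 30, 69, 53 and 2 of all). Over all results and alternatives, 1584 values kept their side of the threshold and their direction where they have one, 64 lost and 24 gained a call, 54 moved and the 4 named turned. In 13 more cases a change across hatch that was called in neither fit changed sign, for miR-1559-5p (8 cases, up to 0.11), miR-2954 (3, down to -0.11) and miR-1451-5p (2, both -0.12). Depth limits what can be said of the 66 high-numbered miRNAs that were not tested.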
